A study of Mus musculus with 14 samples.

Results

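The genes described here are 8 transcripts that mark reactive astrocytes: Gfap, Vim, Nes, Serpina3n, Lcn2, Tgm1, Cd44 and S1pr3. They were taken by name from the 31507 genes of the deposited expression table, and all 8 had a row. The study measured RNA and its N6-methyladenosine (m6A) marks in mouse brain after intracerebral haemorrhage (ICH), bleeding into the brain tissue, with and without acupuncture. The sham group (3 samples) had a sham operation. The ICH group (2 samples) received autologous blood, that is, the animal's own blood. The acupuncture group (2 samples) came from ICH mice needled at the point GV20 for 7 consecutive days, so ICH is shared by both of the latter groups and there was no acupuncture group without ICH. Each sample gave an input library of poly(A) RNA, used for RNA levels, and a library immunoprecipitated (IP) with an antibody against m6A. Strain, genotype, sex, age, the time of sampling and the brain region are not given in the sources used here, and neither is whether a sample was 1 animal, so p-values measure the spread between these samples, which may be technical.

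Astrocytes answer injury with a graded change of state called reactivity, in which they enlarge, rebuild their intermediate filaments and secrete protease inhibitors, iron-handling proteins and cytokines. Signalling through the transcription factor STAT3 is a well studied route into this state. In brain haemorrhage, reactive astrocytes gather around the clot and help to wall it off from living tissue. Several of the 8 genes are also used by other cells: Vim and Nes by endothelium and progenitors, Lcn2 by neutrophils, and Cd44 by immune cells.

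The deposited tables give m6A peaks by position, and the promoters of 4 of the genes are printed here because these are the 4 with the largest ratios of mean RNA level between ICH and sham. Each sequence, from RefSeq on GRCm38.p6, is the 250 bases before the annotated start on the gene's own strand, and for Gfap 8 bases more, which complete a match that spans the start. Capitals mark matches to TTCNNNGAA, the palindrome bound by STAT proteins.
Lcn2 (chr2:32387740-32387989, minus strand): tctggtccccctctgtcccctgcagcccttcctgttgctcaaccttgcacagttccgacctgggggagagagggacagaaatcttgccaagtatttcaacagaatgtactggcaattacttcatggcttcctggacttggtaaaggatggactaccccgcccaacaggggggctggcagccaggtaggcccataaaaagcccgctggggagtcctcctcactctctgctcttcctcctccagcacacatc
Serpina3n (chr12:104406458-104406707, plus strand): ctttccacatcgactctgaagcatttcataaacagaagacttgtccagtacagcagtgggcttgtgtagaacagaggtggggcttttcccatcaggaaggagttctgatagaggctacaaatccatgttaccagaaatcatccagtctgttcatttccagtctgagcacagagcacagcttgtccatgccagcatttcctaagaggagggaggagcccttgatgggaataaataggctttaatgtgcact
Tgm1 (chr14:55713493-55713742, minus strand): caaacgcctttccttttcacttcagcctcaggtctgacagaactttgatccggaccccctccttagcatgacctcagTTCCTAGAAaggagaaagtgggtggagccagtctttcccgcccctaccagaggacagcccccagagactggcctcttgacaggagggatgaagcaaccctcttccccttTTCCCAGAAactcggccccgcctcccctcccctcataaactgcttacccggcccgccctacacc
Gfap (chr11:102897193-102897450, minus strand): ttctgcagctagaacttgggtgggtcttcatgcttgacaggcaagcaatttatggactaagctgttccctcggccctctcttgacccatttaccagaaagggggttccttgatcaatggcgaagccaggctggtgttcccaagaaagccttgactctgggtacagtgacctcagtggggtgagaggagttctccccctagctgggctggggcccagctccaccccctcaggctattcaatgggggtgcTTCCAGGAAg
The STAT motif, searched on both strands, occurred in 8.3% of 32851 mouse promoter windows that run from 250 bases before the start to 50 after it. Of the 8 genes, Gfap and Tgm1 held it. In Gfap it ran from position -2 to 7 relative to the start, and in Tgm1 it occurred at -173 to -165 and at -64 to -56, in 1 of the gene's 2 annotated promoters. The AP-1 motif TGANTCA, also searched on both strands and not overlapping the STAT motif in these windows, was in 7.81% of all promoters and in 0 of the 9 windows of these genes. A match describes letters only and shows no binding.

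RNA levels are given as FPKM, a count of fragments scaled for gene length and library size. Differences between groups were tested with limma on log2(FPKM + 1) fitted together for the 13666 genes whose mean over the 7 input libraries reached 1 FPKM, and the threshold was 0.05 on the p adjusted by Benjamini and Hochberg's method. All 8 genes were tested. Lcn2, Tgm1 and Cd44 had sham means under 1 FPKM and passed the filter only through the haemorrhage groups, so the count of called genes is a description of the list. After ICH 7 of the 8 rose against sham, where 4.95% of all tested genes were called higher and 0.724% lower. With acupuncture, all 8 were above sham at the same threshold, where 8.47% of all tested genes were called higher and 3.22% lower. Between acupuncture and ICH none of the 8 passed, and 0.0366% of all tested genes (5 of 13666) did. In whole tissue, a change in the number of cells of a type and a change in RNA per cell cannot be told apart. Markers of brain cells were present: 11 astrocyte markers summed to 771 to 794 FPKM in sham and 6 neuron markers to 715 to 787, and every one was above 0 in some library of each group. No other tissue was compared, so the tissue label was not tested.

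Among the intermediate filament genes, Gfap and Vim had larger fold changes than Nes. Gfap, which encodes the filament protein that defines astrocytes, was at 24.0, 25.4 and 29.4 FPKM in the sham libraries. It was at 394 and 338 FPKM after ICH, and at 451 and 362 FPKM with acupuncture. Every haemorrhage library lay far above sham, and the ICH and acupuncture ranges overlapped. The mean after ICH was 14.0 times the sham mean, equal to 3.75 on the log2 scale with an SE of 0.149 (adjusted p = 7.22e-05, limma). Gfap (ENSMUSG00000020932) lies at chr11:102887336-102900912 on the minus strand.

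Vim encodes vimentin, which joins GFAP in the filaments of reactive cells. It was at 4.63, 4.44 and 4.88 FPKM in sham, at 65.6 and 58.9 after ICH, and at 89.5 and 75.9 with acupuncture. The 3 groups did not overlap, with sham lowest and acupuncture highest. Vim (ENSMUSG00000026728, chr2:13573927-13582826, plus strand) rose 13.4 times after ICH as a ratio of means, or by 3.48 on the log2 scale with an SE of 0.110 (adjusted p = 4.2e-05, limma).

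Nes encodes nestin, the filament protein of neural progenitors that is made again in reactive astrocytes. Its sham levels were 1.74, 2.31 and 2.21 FPKM, its ICH levels 5.71 and 3.45, and its acupuncture levels 6.84 and 5.88. The groups did not overlap, but the ICH libraries were far apart. Nes (ENSMUSG00000004891, chr3:87971078-87980451, plus strand) was the member that missed the threshold between ICH and sham, with a log2 fold change of 0.83 and an SE of 0.187 (adjusted p = 0.0530, limma). That call depended on single libraries and on the processing: the adjusted p was 0.0325 without ICH replicate 1, 0.0113 without ICH replicate 2, 0.0463 with a pseudocount of 0.1 and 0.04998 with median-ratio scaling. Against sham, the Nes log2 value was 1.26 higher with acupuncture (limma adjusted p = 0.00646), and the adjusted p was 0.0624 without acupuncture replicate 1.

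The secreted proteins had the highest ratios after Tgm1. Serpina3n, a secreted inhibitor of serine proteases, was at 4.59, 3.70 and 4.85 FPKM in sham. It stood at 128 and 134 FPKM after ICH and at 229 and 219 with acupuncture. The 3 groups were separate, and within each group the libraries lay close together. The ICH mean was 30.0 times the sham mean, a difference of 4.63 log2 units with an SE of 0.119 (adjusted p = 1.64e-05, limma). Serpina3n (ENSMUSG00000021091, chr12:104406729-104414329, plus strand) belongs to a tandem family of similar genes that can share reads. Of 10 relatives searched by name, 6 had a row, and the highest level among them was 0.712 FPKM, for Serpina3m in acupuncture replicate 1. None of the 6 reached the mean of 1 FPKM needed for a test.

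Lcn2 encodes lipocalin 2, a secreted carrier of iron-binding siderophores that is made by reactive astrocytes and by neutrophils. It was at 0.595, 0.765 and 0.574 FPKM in sham, at 38.6 and 41.9 after ICH, and at 91.7 and 45.8 with acupuncture. All haemorrhage libraries were above sham, and acupuncture replicate 1 stood well above the other acupuncture library. The ICH mean was 62.4 times that of sham, a difference of 4.65 log2 units with an SE of 0.261 (adjusted p = 0.000262, limma) for Lcn2 (ENSMUSG00000026822, chr2:32384633-32388252, minus strand).

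Tgm1 encodes transglutaminase 1, an enzyme that crosslinks proteins and is best known from the outer skin. Its sham levels were 0.0436, 0.0639 and 0.0635 FPKM. They were 22.8 and 15.0 FPKM after ICH and 29.6 and 18.0 with acupuncture. Tgm1 was thus nearly silent in each sham library and present in every haemorrhage library, where the ICH and acupuncture ranges overlapped. The ratio of means was 332, which rests on sham values close to 0. The log2 fold change of Tgm1 (ENSMUSG00000022218, chr14:55700009-55713926, minus strand) on the FPKM + 1 scale, which understates the change of low genes, was 4.21 with an SE of 0.234 (adjusted p = 0.000257, limma). It was 6.89 with a pseudocount of 0.1.

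The receptors were lower in level than Gfap, Vim, Serpina3n, Lcn2 and Tgm1 in every haemorrhage library, with smaller fold changes. Cd44, the cell surface receptor for hyaluronan and osteopontin, was at 0.392, 0.544 and 0.540 FPKM in sham, at 3.89 and 5.29 after ICH, and at 5.26 and 3.20 with acupuncture. ICH and acupuncture libraries interleaved, all above sham. Cd44 (ENSMUSG00000005087, chr2:102811141-102901665, minus strand) had an ICH mean 9.33 times that of sham and rose by 1.90 on the log2 scale with an SE of 0.194 (adjusted p = 0.00214, limma), or by 2.98 with a pseudocount of 0.1.

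S1pr3 encodes a receptor for the lipid mediator sphingosine 1-phosphate. It was at 1.74, 1.50 and 2.05 FPKM in sham, at 6.71 and 5.31 after ICH, and at 8.97 and 6.41 with acupuncture. Again the ICH and acupuncture ranges overlapped and both lay above sham. The ICH mean was 3.41 times that of sham and the log2 fold change of S1pr3 (ENSMUSG00000067586, chr13:51408639-51422797, plus strand) was 1.34 with an SE of 0.166 (adjusted p = 0.00472, limma).

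**Figure D1:**
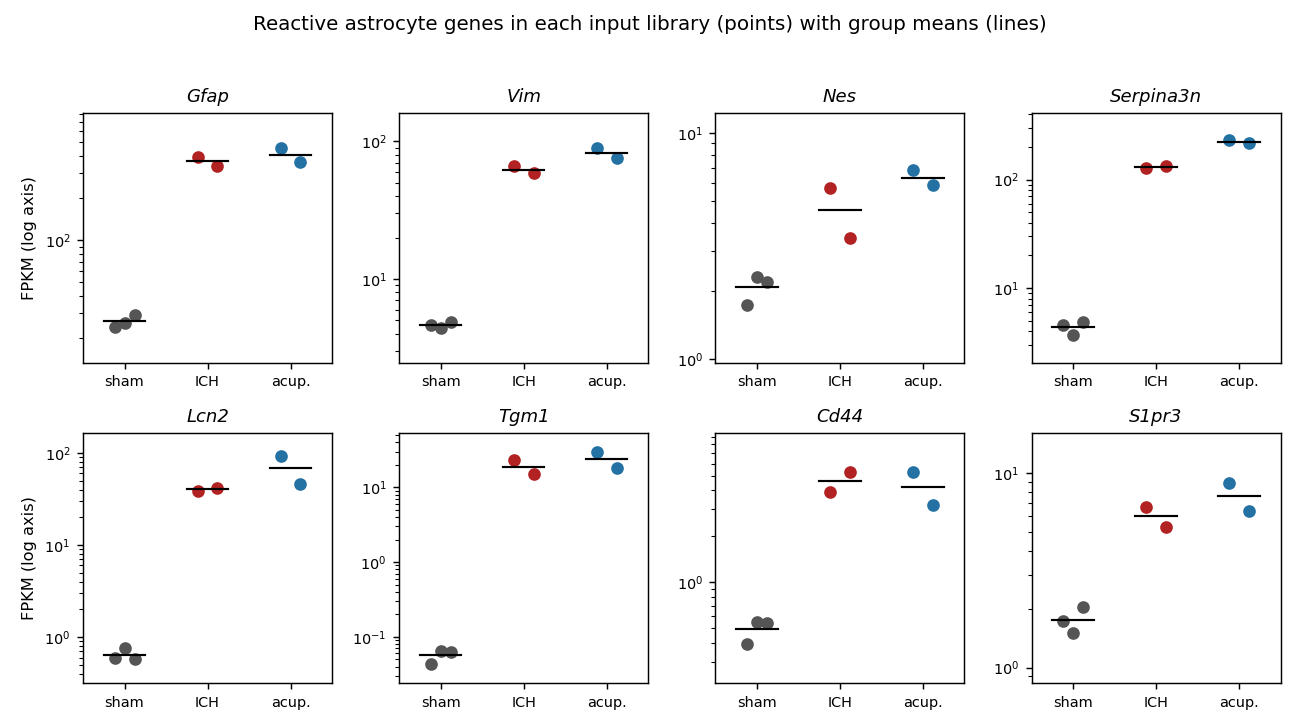
FPKM of each of the 8 genes (log axis, one panel per gene) in the 3 sham, 2 ICH and 2 acupuncture input libraries, as points, with lines at the group means. In every panel the sham libraries lie below all others, for example Tgm1 at 0.0436 to 0.0639 FPKM in sham against 15.0 to 29.6 in the haemorrhage groups.

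Set against the other comparison with sham, the acupuncture values were 15.5 times the sham mean for Gfap, 17.8 for Vim, 3.05 for Nes, 51.2 for Serpina3n, 107 for Lcn2, 418 for Tgm1, 8.60 for Cd44 and 4.36 for S1pr3. The log2 fold changes ran from 1.26 for Nes to 5.39 for Serpina3n. Their limma adjusted p ran from 5.71e-06 for Serpina3n to 0.00646 for Nes. Over the 8 genes the median log2 fold change was 3.62 for ICH and 3.89 for acupuncture, against medians of -0.0061 and 0.037 over all tested genes. The medians of the 8 include Lcn2, Tgm1 and Cd44, which passed the filter only through the haemorrhage groups, so they are descriptions. Both comparisons use the same 3 sham libraries, so their likeness is not a separate result.

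Whether acupuncture moved the genes away from their ICH level is the comparison the study design turns on. Serpina3n had the largest difference, a ratio of means of 1.71 and a log2 difference of 0.77 (95% interval 0.46 to 1.07, limma adjusted p = 0.132), with both acupuncture libraries above both ICH libraries. Lcn2 had the same ratio of means, 1.71, but a wide 95% interval, 8.37e-05 to 1.35, around a log2 difference of 0.68 (limma adjusted p = 0.248). For Vim the log2 difference was 0.40 (95% interval 0.12 to 0.69, limma adjusted p = 0.199), and for Nes 0.43 (-0.06 to 0.91, limma adjusted p = 0.276). Separation of the libraries is described only, as its share over all tested genes is not given here. In Vim, Nes, Serpina3n and Lcn2 both acupuncture libraries were above both ICH libraries. The other 4 overlapped: the log2 difference was 0.15 (-0.24 to 0.53) for Gfap, 0.31 (-0.30 to 0.91) for Tgm1, 0.30 (-0.13 to 0.73) for S1pr3 and -0.11 (-0.62 to 0.39) for Cd44.

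By limma, 0 of the 8 genes passed the adjusted threshold, and 3 (Serpina3n, Vim and Lcn2) had an unadjusted p under 0.05. A log2 difference above 0 was seen in 7 of the 8, and in 7654 of the 13666 tested genes. The median was 0.35 over the 8 genes, against 0.047 for all tested genes. At an unadjusted p under 0.05 stood 2754 of all tested genes. The outcome hung on ICH replicate 1: without it, 3 members passed (Serpina3n at an adjusted p of 0.0113, Nes at 0.0161 and Vim at 0.0241), and so did 5098 of all genes in place of 5, the lone ICH library then being assumed to vary like the other groups. Signs also turned for genes near 0. Gfap was at -0.01 and Tgm1 at -0.04 without acupuncture replicate 1, and Cd44 at 0.07 without ICH replicate 2 and at 0.17 without acupuncture replicate 2. The intervals leave room for changes of either sign in Gfap, Tgm1, Cd44, S1pr3 and Nes, and a missed threshold does not show that levels were alike.

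**Figure D2:**
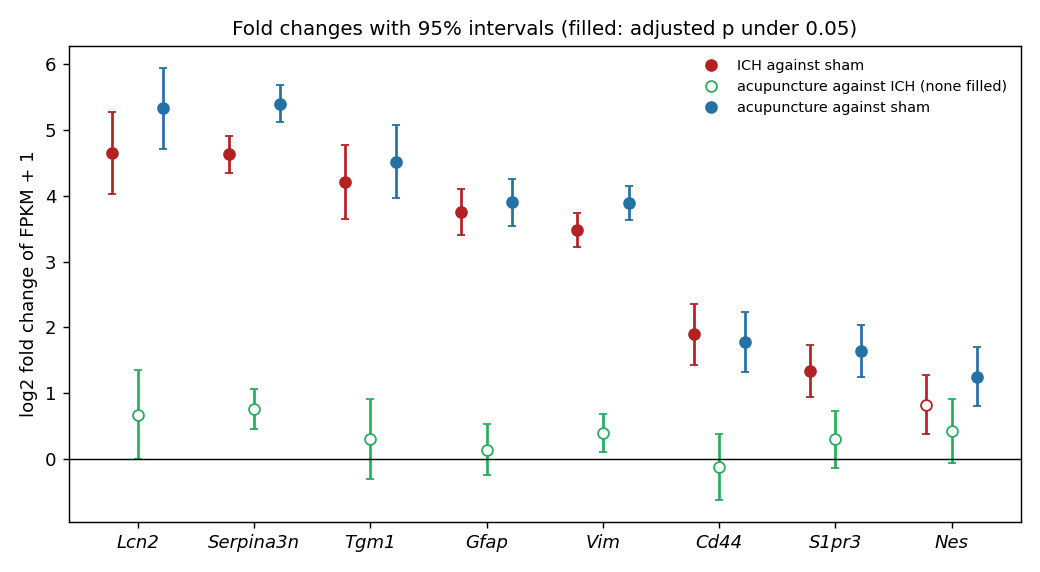
Log2 fold change of FPKM + 1 for each gene in the 3 comparisons, with 95% intervals from limma, filled where the adjusted p was under 0.05. The points for acupuncture against ICH run from -0.11 (Cd44) to 0.77 (Serpina3n) and none is filled, while those against sham run from 0.83 (Nes, open) to 5.39 (Serpina3n).

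The order of the 8 genes by mean FPKM changed between groups. In sham it was Gfap (26.2 ± 2.79, SD, n = 3), Vim (4.65 ± 0.217), Serpina3n (4.38 ± 0.605), Nes (2.08 ± 0.304), S1pr3 (1.76 ± 0.274), Lcn2 (0.645 ± 0.105), Cd44 (0.492 ± 0.0865) and Tgm1 (0.0570 ± 0.0116). Vim and Serpina3n overlapped in their sham libraries, as did Nes and S1pr3. After ICH the order was Gfap, Serpina3n, Vim, Lcn2, Tgm1, S1pr3, Cd44 and Nes, and among neighbours in that order only Cd44 (4.59 ± 0.988, SD, n = 2) and Nes (4.58 ± 1.60) overlapped. With acupuncture it was Gfap, Serpina3n, Vim, Lcn2, Tgm1, S1pr3, Nes and Cd44. There Vim (82.7 ± 9.62, SD, n = 2) overlapped Lcn2 (68.7 ± 32.5), and S1pr3 (7.69 ± 1.81) overlapped Nes (6.36 ± 0.674). Serpina3n thus stood above Vim in each haemorrhage library. Among all 31507 genes, Gfap went from rank 1416 by mean FPKM in sham to rank 23 in both ICH and acupuncture. Serpina3n went from rank 7635 to 145 after ICH and was at 68 with acupuncture. Tgm1 went from 21811 to 2069, while Nes moved from 10813 to 7600.

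Relative to Gfap in the same library, the genes fell into different patterns. Vim kept a near constant ratio: 0.166 to 0.193 of the Gfap level in sham, 0.166 and 0.174 after ICH, and 0.198 and 0.210 with acupuncture. Serpina3n went from 0.146 to 0.192 in sham to 0.326 and 0.398 after ICH and 0.508 and 0.605 with acupuncture, with no overlap of the 3 groups. Lcn2 was at 0.0195 to 0.0301 of Gfap in sham, 0.0978 and 0.124 after ICH, and 0.203 and 0.126 with acupuncture. Nes had the reverse order, 0.0725 to 0.0909 in sham against 0.0102 and 0.0145 after ICH and 0.0152 and 0.0163 with acupuncture, since its level changed less than that of Gfap. S1pr3 did the same, from 0.0592 to 0.0725 in sham to 0.0157 and 0.0170 after ICH. These ratios are descriptions and were not tested.

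The tested genes with the most similar profile were found by the root mean square (RMS) difference of centred log2(FPKM + 1) values over the 7 input libraries. Gfap and Vim were each other's nearest gene, at 0.136 log2 units, and Ifi30, an enzyme of antigen processing in lysosomes, came next for both (0.204 for Gfap and 0.199 for Vim). Timp1, a secreted inhibitor of matrix metalloproteinases, was nearest to Serpina3n (0.220) and to Lcn2 (0.212), and these members stood 0.285 apart. For Tgm1 the nearest were Gfap (0.312) and Ifi30 (0.320), on a scale that understates the change of low genes. As a ratio to Gfap, Tgm1 went from 0.00182 to 0.00251 in sham to 0.0579 and 0.0443 after ICH. Cd53, a leukocyte surface protein, was nearest to Cd44 (0.113), followed by the membrane glycoprotein gene Pdpn (0.147). For S1pr3 they were Pros1, which encodes the anticoagulant protein S (0.0941), and Neurl3 (0.103). For Nes they were Fgfrl1 (0.0660) and the microglial gene Tmem119 (0.0774).

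Other genes of the reactive state were read from lists of literature markers. Of 7 further pan-reactive genes, 5 rose after ICH, 0 changed between acupuncture and ICH, and 7 rose with acupuncture against sham, with 5 to 7 rising after ICH as each library was left out in turn. As with Lcn2, Tgm1 and Cd44, several listed genes had sham means under 1 FPKM and passed the filter only through the haemorrhage groups, so these counts too are descriptions. They were 4 of the 5 pan-reactive genes that rose after ICH (Cxcl10, Osmr, Steap4 and Timp1), 3 of the 7 A1 genes (C3, Ggta1 and Psmb8), 1 of the 2 A2 genes (Emp1) and, among the signals, Socs3. With acupuncture against sham they were 5 of the 7 pan-reactive, 4 of the 9 A1 and 2 of the 5 A2 genes that rose. Timp1 went from 0.189 to 0.642 FPKM in sham to 27.4 and 32.4 after ICH and 75.8 and 46.0 with acupuncture, a log2 fold change of 4.49 for ICH against sham. Cxcl10, a chemokine, rose by 2.48 on that scale, Cp, the copper carrier ceruloplasmin, by 1.77, and Osmr, the oncostatin M receptor, by 1.50.

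Of 12 genes of the neurotoxic (A1) signature, 11 were tested, and 7 rose after ICH and 9 with acupuncture against sham, the latter count going down to 6 without acupuncture replicate 2. C3, the central complement component, rose by a log2 fold change of 3.53 after ICH (15.5 and 12.1 FPKM, against 0.176 to 0.333 in sham), Gbp2 by 2.19, Ggta1 by 1.37 and Psmb8 by 1.35. Of 11 genes of the protective (A2) signature, 6 were tested, of which 2 rose after ICH, Cd14 (1.38) and Emp1 (0.94). Against sham, 5 of the 6 rose with acupuncture, and 3 did so without any 1 sham library or without acupuncture replicate 1. The A2 gene Ptx3 had a log2 fold change of 1.73 after ICH with an adjusted p of 0.0937, which was 0.0025 without acupuncture replicate 1 and 0.0021 without acupuncture replicate 2. Emp1 had an adjusted p of 0.00814 and lost its call when the replicate number was added as a block (adjusted p = 0.0818). None of the A1 or A2 genes passed between acupuncture and ICH, where 6 of 11 and 3 of 6 had an unadjusted p under 0.05 in limma. Medians after ICH were 1.50 for the further pan-reactive genes, 1.37 for A1 and 0.78 for A2. They too include genes that passed the filter only through the haemorrhage groups and are descriptions of the tested genes.

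Among 13 partners (8 tested), such as hyaluronan synthases, sphingosine 1-phosphate enzymes and receptors for lipocalin 2, Spp1 was the 1 called after ICH (2 were called without either ICH library). It encodes osteopontin, a ligand of CD44, and rose from 3.23 to 5.17 FPKM in sham to 21.7 and 22.2 after ICH, with 31.1 and 29.5 under acupuncture. The lipocalin 2 receptor gene Slc22a17 was at 93.5 to 103 FPKM in sham and at 85.7 and 57.6 after ICH, a log2 difference of -0.50 that missed the threshold (limma adjusted p = 0.161; without ICH replicate 1 it passed at 0.0019). S1pr1, another receptor for the S1PR3 ligand, was higher in level, at 28.3 to 33.5 FPKM in sham and 35.0 and 46.6 after ICH (limma adjusted p = 0.225; without ICH replicate 1 it passed at 0.0212). With acupuncture 3 of the 8 tested partners rose against sham, and 1 without acupuncture replicate 1. Of 12 reactivity signals (9 tested), Socs3, the feedback inhibitor of STAT3 signalling, and Stat3 itself rose after ICH, by 1.50 and 0.76 on the log2 scale. Stat3 missed the threshold without sham replicate 1 (adjusted p = 0.0659) or sham replicate 2 (0.0575). The count went to 5 without ICH replicate 1, and 3 signals rose with acupuncture against sham.

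Some markers of other cell types, those of microglia and macrophages in most cases, were also called. General astrocyte markers summed to 771 to 794 FPKM in sham, 871 to 916 after ICH and 898 to 953 with acupuncture, and 1 of 11 rose after ICH, the water channel gene Aqp4 (log2 fold change 1.23, limma adjusted p = 0.0202). That call was lost without sham replicate 1 (adjusted p = 0.0848), sham replicate 2 (0.0775) or ICH replicate 2 (0.0582), and the count became 3, with 2 others falling, without ICH replicate 1. With acupuncture 2 of 11 rose against sham, Aldh1l1 (log2 fold change 1.18, limma adjusted p = 0.0232) and the glutamate transporter gene Slc1a3 (0.42, adjusted p = 0.0415). That count was 0 without any 1 sham or acupuncture library and 4 without either ICH library. Glul and Slc1a2 made up most of the summed level. Glul averaged 367 FPKM in sham, 346 after ICH and 470 with acupuncture, while Slc1a2 averaged 144, 162 and 103. Neither passed the threshold in any comparison. In the same order Aqp4 averaged 18.9, 45.9 and 31.3 FPKM, and Aldh1l1 10.5, 18.5 and 25.2. Log2 fold changes against sham were above 0 for 9 of the 11 after ICH and for 8 with acupuncture. Over the 13666 tested genes those numbers were 6713 and 7630. Of 10 microglia and macrophage markers, 9 rose after ICH and 9 rose with acupuncture against sham, while P2ry12 fell there, a call that was lost when any 1 sham or acupuncture library was left out. Their summed level went from 90.2 to 111 FPKM in sham to 406 to 458 after ICH and 521 to 527 with acupuncture.

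Neutrophil markers, of which 4 of 6 were tested, summed to 8.81 to 10.9 FPKM in sham, 22.7 to 23.1 after ICH and 57.6 to 86.1 with acupuncture. One of the 4 rose after ICH (3 without ICH replicate 1, 2 without acupuncture replicate 2) and all 4 rose with acupuncture against sham. Ly6g, a defining neutrophil marker, was listed at 0 in every sham and ICH library and at 0.145 FPKM in acupuncture replicate 1. Cxcr2, also untested, averaged 0.0349 FPKM in sham, 0.473 after ICH and 1.47 with acupuncture. The 4 tested markers had higher means in both haemorrhage groups than in sham. S100a8 averaged 3.08 FPKM in sham, 5.98 after ICH and 25.0 with acupuncture, and S100a9 averaged 5.21, 8.55 and 35.6. In the same order Csf3r averaged 1.28, 6.60 and 7.70 FPKM, and Mmp9 0.329, 1.26 and 1.98. Endothelial markers summed to 34.1 to 41.1 FPKM in sham, 47.1 to 56.3 after ICH and 78.0 to 81.0 with acupuncture, and 3 of 7 rose after ICH (1 when any single sham or acupuncture library or ICH replicate 2 was left out). With acupuncture 4 of 7 rose against sham, 2 without sham replicate 1 and 1 without either acupuncture library. Fibroblast and mural cell markers summed to 31.5 to 32.9, 37.5 to 55.1 and 43.1 to 43.3 FPKM in the same order, and 2 of 7 rose after ICH (1 without sham replicate 1 or 3, and 4 without ICH replicate 1). None of 6 ependymal, 6 progenitor and 6 neuron markers passed in any of the 3 comparisons, with 1, 1 and 2 of them at an unadjusted p under 0.05 after ICH in limma. Without ICH replicate 1, 4 neuron markers rose after ICH and 2 fell, and 1 progenitor marker rose and 1 fell. Against sham with acupuncture, 3 neuron markers fell without either ICH library. In the same comparison 1 ependymal marker rose without sham replicate 3 or without either ICH library, and 2 ependymal markers fell without acupuncture replicate 1. The part of these cells in the levels of Lcn2, Cd44, Vim and Nes was not tested. Nor was it tested for the other members or for the pan-reactive, A1, A2, partner and signal genes.

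**Figure D3:**
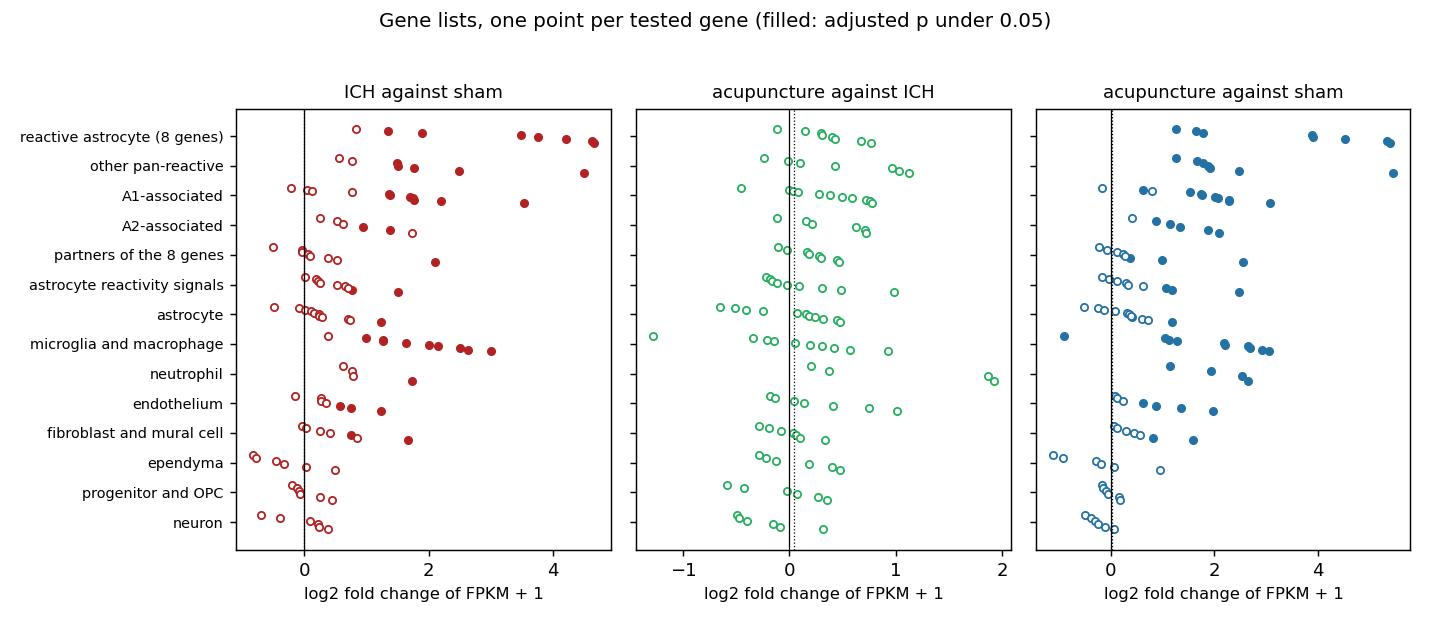
Log2 fold change of FPKM + 1 for every tested gene of each list (one point per gene, filled where the limma adjusted p was under 0.05) in the 3 comparisons, with the median of all tested genes as a dotted line. The 8 reactive astrocyte genes reach 4.65 (Lcn2) after ICH, and the further pan-reactive genes reach 4.49 (Timp1). Both genes had sham means under 1 FPKM and passed the filter only through the haemorrhage groups, so this reach is a description. No point is filled between acupuncture and ICH.

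The m6A peaks were deposited per group, so no replicate spread is known, and each peak's log2 of IP over input is the authors' own value. All 3 lists together held 46 peaks in the 8 genes: 16 in sham, 16 after ICH and 14 with acupuncture. In sham 7 of the 8 genes had a peak, against 93.6% of all tested genes, and in ICH and acupuncture all 8 had one, against 94.3% and 94%. The gene without a sham peak was Tgm1, whose RNA was nearly absent there. Member peaks had a median log2 of 1.08 in sham, 1.35 after ICH and 1.26 with acupuncture, close to the medians of 1.07, 1.24 and 1.12 over all peaks of those lists. By the files' annotation 12, 12 and 10 of the member peaks lay in the 3′ UTR, 1, 2 and 2 in the 5′ UTR and 3, 2 and 2 in other exons. Of the 16 sham peaks, 13 overlapped a peak in both other lists by at least 1 bp, in 7 genes, and 13 did so by at least 50% of the shorter peak. For annotation and overlap the shares over all peaks are not given here, so these counts are descriptions of the 8 genes.

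The genes differed in where and how strongly they were marked. A peak reached the end of the gene in 5 sham, 7 ICH and 7 acupuncture cases, and the share over all peaks is not given here. Vim had a single peak at its 3′ end in each group, with a log2 of 1.12 in sham (chr2:13582584-13582826), 1.39 after ICH and 1.14 with acupuncture. Tgm1 likewise had a single 3′ end peak, at 1.68 after ICH (chr14:55700009-55700333) and 1.29 with acupuncture. Lcn2 had one at 1.66 in sham (chr2:32384633-32384932), 1.30 after ICH and 1.40 with acupuncture, and in sham a further peak near its start at 0.83.

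The strongest enrichment was in S1pr3 and Serpina3n. In S1pr3 the edges of the main peak took in most of the gene (chr13:51408764-51420459 in sham), with a 3′ UTR annotation in all 3 lists, with a log2 of 2.39 in sham, 2.62 after ICH and 2.52 with acupuncture. The main Serpina3n peak started at the gene's first base (chr12:104406729-104413690 in sham) and stood at 2.49, 2.53 and 2.27, annotated as 3′ UTR in sham and as 5′ UTR in the other lists. These spans run over introns, and where within them the mark lies is not known, since the lists used here give the outer edges of a peak and not its exon blocks. In Nes the main peak lay in the distal part of the gene, at 1.95 in sham (chr3:87975986-87978935), 2.16 after ICH and 1.86 with acupuncture. Cd44 had 3, 4 and 2 peaks, all in the distal part of the gene, and its main peak stood at 1.42, 1.65 and 1.23.

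Gfap had 3 peaks in sham, 3 after ICH and 2 with acupuncture. The 3′ end peak was at 0.78 in sham (chr11:102887336-102887535), 1.13 after ICH and 0.97 with acupuncture. At the 5′ side the sham peak covered 375 bp (chr11:102896804-102897178, log2 0.65). After ICH a span of 3816 bp was listed (chr11:102896979-102900794, log2 1.17) and the same span with acupuncture at 0.79. It takes in the region of the promoter window printed above, because the gene model of the files starts upstream of the RefSeq start.

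**Figure D4:**
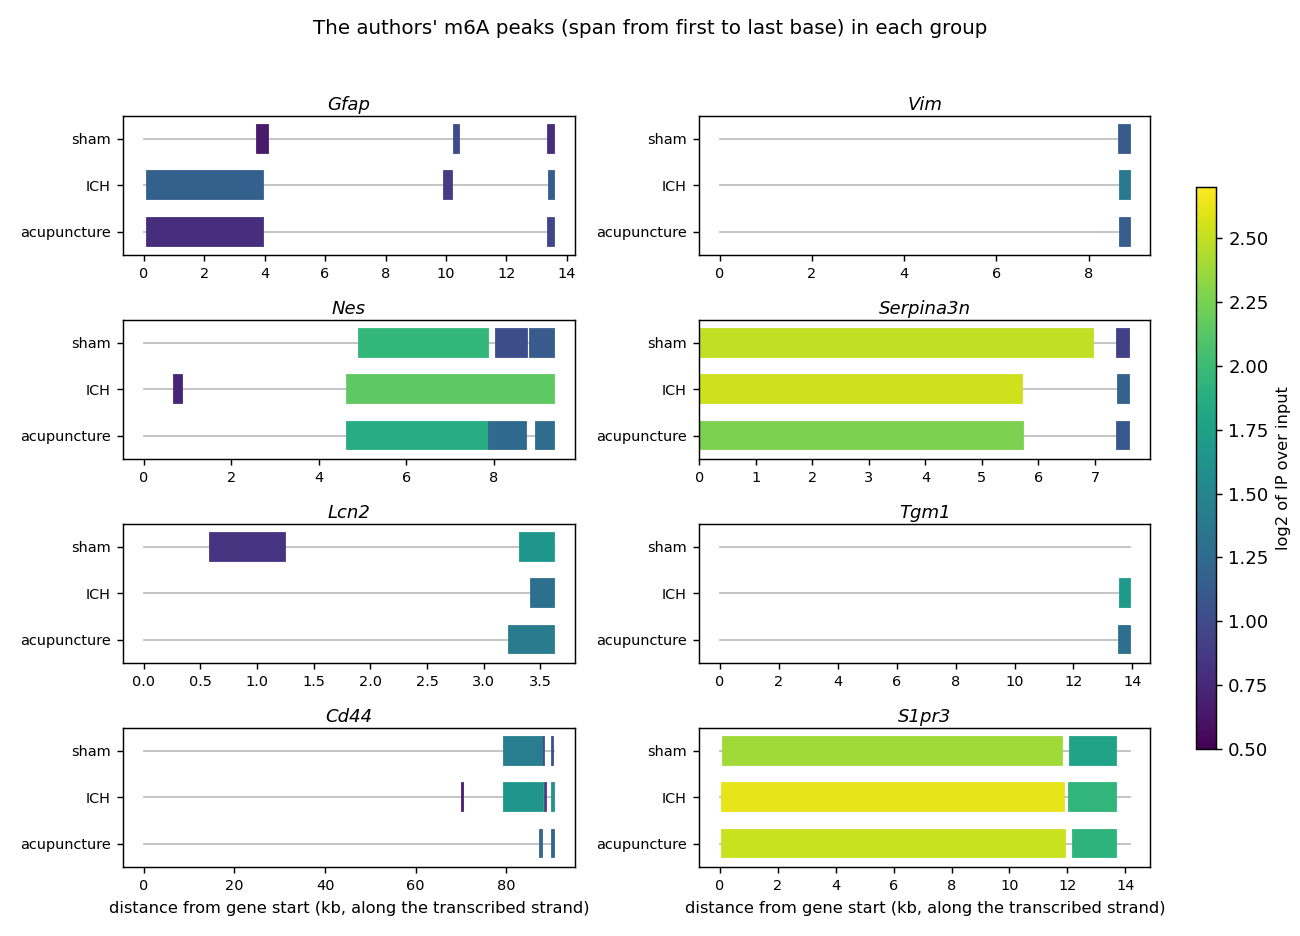
The authors' m6A peaks along each of the 8 genes (distance from the gene start in kb, along the transcribed strand) in the sham, ICH and acupuncture lists, coloured by log2 of IP over input. Peaks gather at the 3′ end in Vim, Tgm1 and Lcn2, while the strongest peaks of S1pr3 (2.39 to 2.62) and Serpina3n (2.27 to 2.53) are drawn from edge to edge over most of the gene.

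The authors' deposited table of differential peaks for ICH against sham lists 11 peaks in the 8 genes, of which 9 had an adjusted p under 0.05, 8 higher after ICH and 1 lower. Of all peaks listed there with a p-value, 69.9% were called higher and 18% lower, so the direction in the 8 genes was that of most listed peaks. Only peaks with a p under 0.05, or no p, are listed in these tables. In the authors' deposited table the largest called difference was in Gfap, at chr11:102890294-102890393, with 1.14 after ICH against 0.36 in sham (difference 0.78, adjusted p = 3.47e-05). The other 3 Gfap peaks in the authors' deposited table differed by 0.23 to 0.36. None of these Gfap stretches overlaps a Gfap peak of the group lists. The 3′ end and 5′ Gfap peaks described above are not listed as differential here. Nes had 2.14 against 1.78 (adjusted p = 7.79e-06), and S1pr3 2.57 against 2.31 (adjusted p = 0.0445), in the authors' deposited table. Vim had 2 called peaks in the authors' deposited table, 0.68 against 0.32 (adjusted p = 0.0498) and 1.30 against 1.05 (adjusted p = 0.0403). The first of these overlaps no Vim peak of the group lists, and the second is the 3′ end peak. Serpina3n, whose RNA rose 30.0 times, was the exception, at 2.48 after ICH against 2.74 in sham (difference -0.27, adjusted p = 0.00939 in the authors' deposited table). The authors' deposited table also lists Tgm1 at 1.41 against -1.45 (adjusted p = 0.0596), where the sham value rests on a transcript under 0.1 FPKM, and Cd44 at 1.33 against 0.67 (adjusted p = 0.0857).

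For acupuncture against ICH, the authors' deposited table lists 12 peaks in the 8 genes, and 10 had an adjusted p under 0.05, 2 higher and 8 lower with acupuncture, in 7 genes. Among all listed peaks with a p-value 11.6% were called higher and 62.4% lower, so here too the 8 genes followed the table. In the authors' deposited table the 3′ end peak of Gfap was at 0.95 with acupuncture against 0.79 after ICH (adjusted p = 4.63e-10), but the group lists have it at 0.97 with acupuncture and 1.13 after ICH, so its direction turns with the source. The long 5′ peak of Gfap was at 0.78 against 1.11 (adjusted p = 9.83e-17) and an inner peak at 0.42 against 1.17 (adjusted p = 0.00012) in the authors' deposited table. Nes had 2 lower peaks in the authors' deposited table, by differences of -0.39 and -0.61. Also lower in the authors' deposited table were Serpina3n (2.26 against 2.48), Vim (1.11 against 1.35), Tgm1 (1.30 against 1.52) and Cd44 (1.19 against 1.60, adjusted p = 0.0456). Lcn2 was higher in the authors' deposited table, at 1.39 against 1.25 (adjusted p = 0.0284).

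For acupuncture against sham, the authors' deposited table lists 4 peaks in these genes, and 1 was called, where 37.7% of all listed peaks with a p-value were called higher and 26.2% lower. It was the Serpina3n peak at chr12:104406729-104413440, at 2.09 with acupuncture against 2.65 in sham in the authors' deposited table (difference -0.56, adjusted p = 9.06e-09). This long Serpina3n peak was thus lower in IP over input, and the RNA higher, in each of the 3 comparisons. The comparisons share their groups, and the RNA difference between acupuncture and ICH missed the threshold. In the group lists a further Serpina3n peak at the 3′ end was at 0.92 in sham, 1.19 after ICH and 1.10 with acupuncture. It is not listed as differential. The other 3 listed peaks, 2 in Gfap and 1 in Tgm1, had adjusted p of 0.082 to 0.142 in the authors' deposited table. The group lists, with other peak edges, gave 2.49 in sham and 2.53 after ICH for the long Serpina3n peak.

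**Figure D5:**
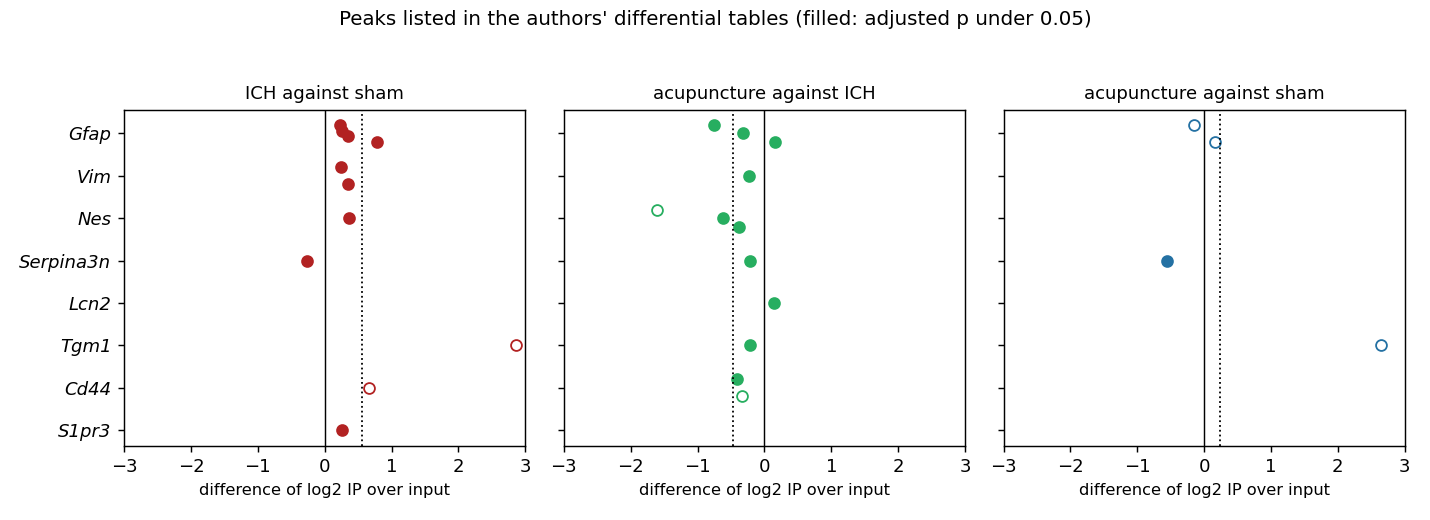
Difference in the authors' log2 of IP over input for each listed peak of the 8 genes in the 3 comparisons (filled where the authors' adjusted p was under 0.05), with the median of all listed peaks dotted, at 0.56, -0.46 and 0.24. Called peaks lie mostly to the right in ICH against sham (8 of 9) and to the left in acupuncture against ICH (8 of 10).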

How the data were processed

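RNA and m6A were measured in brain tissue of sham (3), ICH (2) and acupuncture (2) samples, each with an input and an IP library. Per the submitters' processing notes, fastp, HISAT2, HOMER, StringTie and edgeR were used, with no versions or roles given. The notes name GRCh38, a human build, while the files hold mouse Ensembl identifiers. Gene positions were compared with RefSeq GRCm38.p6 for 25299 shared symbols. For 96.3% the chromosome was equal and at least 1 gene edge agreed to 1000 bp, and positions are printed on that build, counted from 1. Gene levels were deposited as FPKM by the authors per input library. Their read depth is unknown, so no counting interval is given. Columns headed control and EA were taken as sham and acupuncture. A further 2 columns match no sample and were left out. Whether their samples entered the peak lists is not stated. The authors deposited, per group, each peak's log2 of IP over input with p-value and adjusted p-value, and per pair of groups the difference of these log2 values with its p-value.

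Genes averaging 1 FPKM or more were tested on log2(FPKM + 1) with limma 3.58.1 (R 4.3.3), a mean per group, moderated variance and a mean-variance trend, two-sided, with Benjamini-Hochberg adjustment over all 13666 genes. The code was tested on simulated data. The authors' peak values were described and not retested. The members and lists were chosen with earlier results of these data known. Named genes were all 8 members, up to 4 per list with the smallest p in ICH against sham, relatives of Serpina3n, and the 2 genes nearest in profile to each member. Slc22a17 and S1pr1 came in under the list rule, while Ly6g, P2ry12, Serpina3m, Steap4, Glul and Slc1a2 were singled out after their values were seen. Alternatives were a pseudocount of 0.1, no filter, median-ratio scaling, quantile normalization, the replicate number as a block, only the 2 groups compared, no variance trend, and leaving out each library. Counts in the other lists without each library were added after seeing the data.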

Additional observations from a re-analysis of the deposited data

How the results depend on the processing

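Over the 14 alternatives, 7 or 8 members rose after ICH and 7 or 8 with acupuncture against sham, and none changed direction in either comparison. Nes decided both ranges. Between acupuncture and ICH the number of members called was 0 to 3 when single libraries were left out, with 3 without ICH replicate 1, and 0 under the other alternatives. Leaving out single libraries turned the sign of 3 members there, with log2 values from -0.012 to 0.30 for Gfap, -0.037 to 0.65 for Tgm1 and -0.40 to 0.17 for Cd44 (0.068 without ICH replicate 2).

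Other named genes that changed sign between acupuncture and ICH as single libraries were left out, with their lowest and highest log2 values, were, among reactive state genes, Cxcl10 (-0.14 to 0.11, and 0.044 without acupuncture replicate 1), Cp (-0.15 to 0.36), Osmr (-0.52 to 0.045), C3 (-0.94 to 0.038), Gbp2 (-0.083 to 0.25, and -0.066 without ICH replicate 1), Ptgs2 (-0.24 to 0.0094) and Ptx3 (-0.77 to 1.08). Among partners and signals they were Slc22a17 (-0.0054 to 0.56), S1pr1 (-0.31 to 0.096, and 0.034 without acupuncture replicate 2) and Sox9 (-0.42 to 0.053). Among cell markers they were Itgam (-0.12 to 0.23), Cdh5 (-0.085 to 0.18), Pecam1 (-0.081 to 0.36), Dcn (-0.23 to 0.079), Lum (-0.027 to 0.15), Col1a1 (-0.60 to 0.032), Col1a2 (-0.096 to 0.17, and -0.068 without acupuncture replicate 2), Ccdc153 (-0.76 to 0.20), Dynlrb2 (-0.34 to 0.71), Tmem212 (-1.19 to 0.95, and 0.54 without ICH replicate 1), Cspg4 (-0.18 to 0.31), Tubb3 (-0.024 to 0.66) and Nefl (-0.31 to 0.13, and 0.052 without ICH replicate 1). Quantile normalization turned Itgam (-0.029), Cdh5 (-0.0028) and Col1a2 (-0.011) in that comparison and Flt1 (-0.0039) in acupuncture against sham. For ICH against sham the ranges that crossed 0 were Sox2 (-0.45 to 0.054), Cspg4 (-0.36 to 0.13), Snap25 (-0.061 to 0.83), Syt1 (-0.023 to 0.50) and P2ry12 (-0.016 to 0.78). For acupuncture against sham they were Dynlrb2 (-0.80 to 0.26), Tmem212 (-1.98 to 0.16) and Cspg4 (-0.097 to 0.0071). The cause was not tested.

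The count of all genes called was less stable. For ICH against sham it was 776, and 392, 437 and 416 without sham replicates 1, 2 and 3 and 5204 without ICH replicate 1. For acupuncture against sham it was 1598, 775 to 3197 when single libraries were left out, and 3207 with only the 2 groups compared. For acupuncture against ICH it was 5, 2 to 5098 when single libraries were left out, and 2 with only the 2 groups compared. With the authors' p under 0.05 in place of the adjusted p, all 4 listed member peaks counted as different between acupuncture and sham, against 1. With the replicate number as a block, 7, 0 and 8 members were called and 351, 3 and 750 of all genes. Whether the replicate numbers pair the samples is not known. The difference of replicates 1 and 2 correlated across genes at -0.005 between sham and ICH, 0.01 between sham and acupuncture and 0.094 between ICH and acupuncture. These correlations rest on a single difference per group and cannot decide it. Groups of 2 and 3 libraries and an unknown read depth limit the precision, most of all for Tgm1, Cd44 and Lcn2 in sham.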
